A study of Mus musculus with 6 samples.

Results

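The troponins and tropomyosins are the calcium switch of the thin filament of striated muscle. Here the group comprised 10 genes, chosen as the probe sets whose only symbol in the platform annotation was Tnnt1, Tnnt2, Tnnt3, Tnni1, Tnni2, Tnni3, Tnnc1, Tnnc2, Tpm1 or Tpm2. Each gene had 1 probe set, so the group held 10 of 35557 probe sets, or 10 of the 19938 genes measured. No probe set listed a member together with another gene.

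The values came from tibialis anterior, a mixed muscle of the mouse leg, measured on 6 Affymetrix arrays with 1 sample each. Of these, 3 were labelled as MLC-SOCS-3 transgenic muscle on the C57Bl6J background and 3 as control C57Bl6J muscle. SOCS-3 is an intracellular inhibitor of cytokine signalling, and the labels neither spell out MLC nor name the promoter, founder line or dose of the transgene. All mice were 11 weeks old and had been starved for 6 h, and the labels do not say whether the replicates came from separate animals, so the p-values rest on a spread between samples that may be technical only.

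Troponin C binds calcium, troponin I holds the filament off at rest, and troponin T ties both to tropomyosin, the coiled coil that lies along actin and covers the sites where myosin binds. Each troponin subunit has a fast and a slow skeletal form encoded by separate genes, and fibres express the set that matches their contraction speed. Tnnc1 is shared by slow fibres and heart, and Tnnt2 and Tnni3 are the cardiac forms of troponin T and I. The tibialis anterior of the mouse is known as a predominantly fast muscle.

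None of the 10 troponin and tropomyosin genes passed limma's test over all probe sets. For Tnnt1 and Tnni2, 2 of the 10, the 3 arrays labelled MLC-SOCS-3 all read below every control, which held for 6.76% of all probe sets, and neither was separate once arrays were centred on their medians. The values are log2 intensities made with RMA, a method that subtracts background, equalises the distribution of values between arrays and condenses the probes of each set into 1 value. Differences are given as MLC-SOCS-3 minus control with 95% intervals from limma, and a probe set counts as called at an adjusted p under 0.05 over all probe sets. Limma called 0 of the 10 genes, against a background of 0 of 35557 probe sets (0%), and adjusted p-values of the 10 lay between 0.83 and 0.99. At an unadjusted p under 0.05 there were also 0 of the 10, while 2105 of all probe sets (5.92%) passed that mark. Under 13 other settings Tnnt1 passed that unadjusted mark in 6, and Tnni3 in 3 of the 12 that gave it a value. In the fit as reported they came closest of the 10, with the 2242nd and 2424th smallest p-values among all probe sets.

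By level the genes fell into a bright set and a dim set. The fast troponins and both tropomyosins had mean intensities between 13.53 and 14.17, at or above the 99.7th percentile of all probe sets. The slow and cardiac forms lay between 5.81 and 7.68, around the median probe set at 5.99. Probe sets differ in how brightly they report, so these are places on the scale of all probe sets, and no order of expression is drawn between genes. The highest value of any probe set on any array was 15.08, and folds near that end of the RMA scale are compressed.

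The arrays themselves were alike. Their medians lay between 5.98 and 6.04, the lowest correlation between any pair was 0.988 across probe sets, and at most 36 values were identical between 2 arrays. The labels and the file give no batch. Acta1, the skeletal actin, was at 14.59 ± 0.03 on the arrays labelled MLC-SOCS-3 and 14.59 ± 0.02 on control arrays (SD, n = 3 each). Socs3 itself was at 7.15 ± 0.09 on the arrays labelled MLC-SOCS-3 and 7.41 ± 0.03 on control arrays (SD, n = 3 each, limma adjusted p = 0.80), and its second probe set at 6.14 ± 0.02 on the arrays labelled MLC-SOCS-3 and 6.37 ± 0.12 on control arrays (SD, n = 3 each, limma adjusted p = 0.82). For both, the 3 arrays labelled MLC-SOCS-3 all read below every control. The sources used here do not say whether its probes lie in the transgene, and every difference is given for the arrays as labelled.

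The promoters of 3 members are shown because they stand for the bright and the dim forms of the switch. Tnnt1 is the slow gene with the smallest p, and Tnnc1 and Tnnc2 are the slow and fast versions of the same calcium-binding subunit. Each run is the 250 bases before the RefSeq start on build GRCm38.p6, written 5′ to 3′ in the direction of transcription. The E-boxes (CANNTG, the core bound by the MyoD family of muscle transcription factors) are in capitals. Tnnt1 lies on the minus strand at chr7:4515976-4516225, Tnnc1 on the plus strand at chr14:31208062-31208311 and Tnnc2 on the minus strand at chr2:164779735-164779984.
Tnnt1: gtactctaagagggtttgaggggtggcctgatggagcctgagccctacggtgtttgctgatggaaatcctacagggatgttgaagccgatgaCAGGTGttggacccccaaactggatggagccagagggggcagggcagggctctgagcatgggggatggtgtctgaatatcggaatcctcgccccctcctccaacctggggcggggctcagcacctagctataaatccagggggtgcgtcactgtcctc
Tnnc1: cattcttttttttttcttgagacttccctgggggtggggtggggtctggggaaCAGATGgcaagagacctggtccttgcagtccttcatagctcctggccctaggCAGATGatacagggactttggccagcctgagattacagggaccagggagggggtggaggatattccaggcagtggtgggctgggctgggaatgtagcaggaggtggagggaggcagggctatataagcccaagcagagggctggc
Tnnc2: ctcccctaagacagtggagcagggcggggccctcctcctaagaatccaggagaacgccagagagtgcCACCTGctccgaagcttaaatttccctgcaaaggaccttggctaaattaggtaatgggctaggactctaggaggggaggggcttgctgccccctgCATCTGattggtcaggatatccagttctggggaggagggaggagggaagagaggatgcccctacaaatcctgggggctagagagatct

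The RefSeq table held promoters for 8 of the 10 genes. The Tnnt1 stretch had 1 E-box, 158 bases before the start, and a TATAAA match 30 bases before it. Tnnc1 had E-boxes 197 and 145 bases before the start, both with the letters CAGATG, and Tnnc2 had them at 183 and 88 bases. An E-box was found in 66.2% of the 32851 promoter stretches of the same length, so its presence does not set these genes apart, and TATAAA was found in 12.4%. The M-CAT core CATTCC, known from cardiac and skeletal muscle promoters, matched 58 bases before the Tnnc1 start and was found in 12.6% of all stretches. Among the other members it matched 56 bases before the Tpm1 start and 27 bases before 1 of the Tnnt2 starts. Both strands were searched, and a match is only a run of letters.

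**Figure D1:**
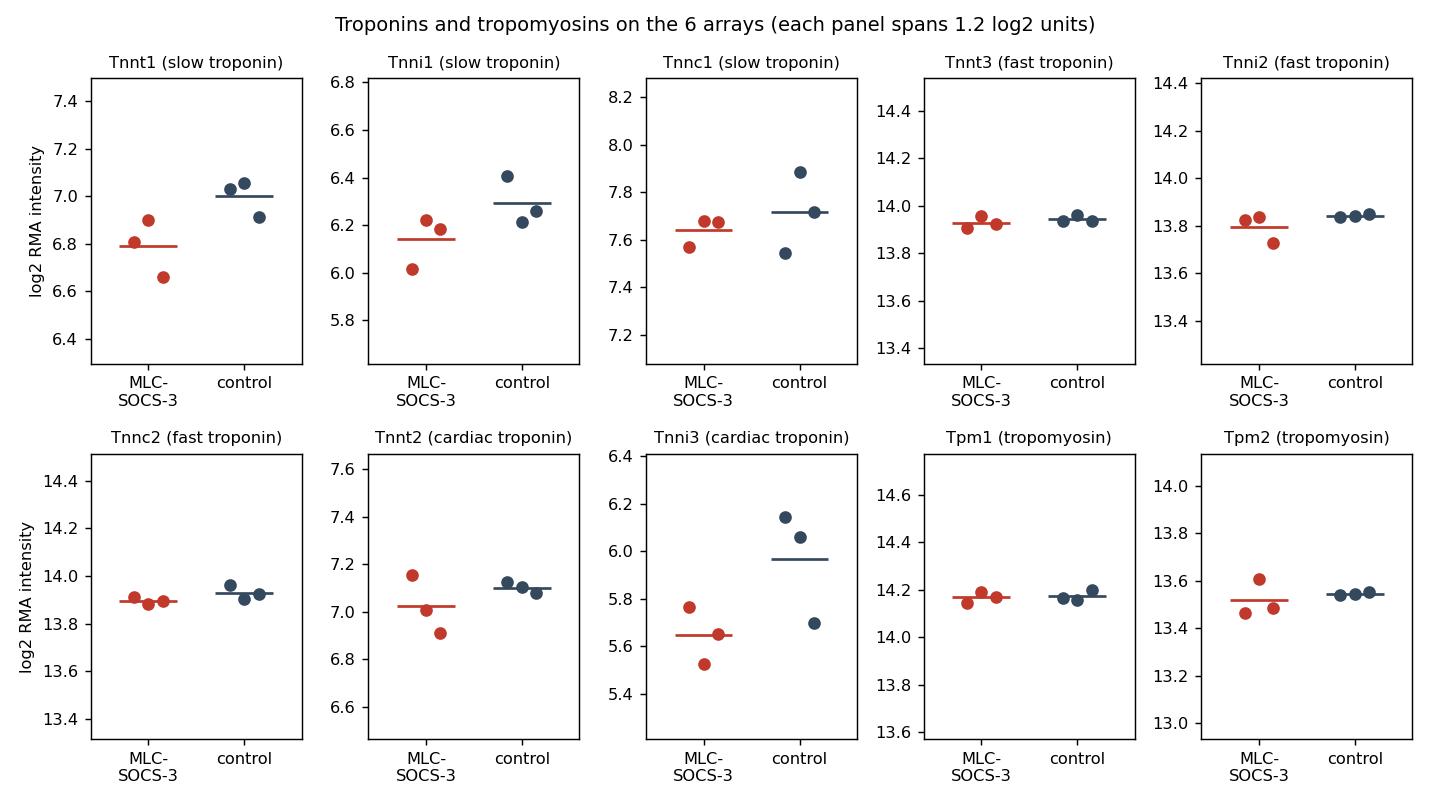
Log2 RMA intensity of the 10 genes on each array, with arrays labelled MLC-SOCS-3 at left and control arrays at right in every panel. Points are arrays in replicate order, lines are group means, and each panel spans 1.2 log2 units. The points of the fast troponins and tropomyosins lie close together, with Tnni2 on MLC-SOCS-3 replicate 3 at 13.73 and Tpm2 on MLC-SOCS-3 replicate 2 at 13.61 standing off, and the slow and cardiac genes scatter more widely.

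Among the slow troponins, Tnnt1 gave the clearest separation. This gene encodes slow skeletal troponin T. It read 6.81, 6.90 and 6.66 on MLC-SOCS-3 replicates 1 to 3, against 7.03, 7.06 and 6.91 on control replicates 1 to 3. All 3 arrays labelled MLC-SOCS-3 lay below all controls, but MLC-SOCS-3 replicate 2 and control replicate 3 were closer to each other than the arrays within either group were. The difference was -0.21 (95% interval -0.42 to 0.0037), a 1.16-fold lower mean intensity that did not pass the test (limma, adjusted p = 0.83). With each array centred on its median the groups overlapped.

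Tnni1, slow skeletal troponin I, read 6.01, 6.22 and 6.18 on MLC-SOCS-3 replicates 1 to 3, against 6.41, 6.21 and 6.26 on control replicates 1 to 3. MLC-SOCS-3 replicate 2 lay above control replicate 2, so the groups overlapped, and the difference was -0.15 (95% interval -0.37 to 0.067, limma adjusted p = 0.86). It was -0.091 without MLC-SOCS-3 replicate 1 and -0.096 without control replicate 1. Tnnc1, troponin C of slow fibres and heart, read 7.57, 7.68 and 7.68 on MLC-SOCS-3 replicates 1 to 3, against 7.54, 7.89 and 7.72 on control replicates 1 to 3. Its controls were spread over a wider range than the arrays labelled MLC-SOCS-3 and enclosed them. The difference was -0.075 (95% interval -0.32 to 0.18, limma adjusted p = 0.92), and it turned to 0.011 without control replicate 2.

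The 3 fast troponins were nearly level across all arrays. Tnnt3, fast troponin T, read 13.90, 13.96 and 13.92 on MLC-SOCS-3 replicates 1 to 3, against 13.93, 13.96 and 13.94 on control replicates 1 to 3. The groups overlapped, and the difference of -0.015 turned to 0.0039 when arrays were centred on their medians. It lay between -0.030 without MLC-SOCS-3 replicate 2 and -0.0038 without MLC-SOCS-3 replicate 1. Its 95% interval corresponded to a change in intensity between -10.3% and 9.13%.

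Tnni2, fast troponin I, read 13.82, 13.84 and 13.73 on MLC-SOCS-3 replicates 1 to 3, against 13.84, 13.84 and 13.85 on control replicates 1 to 3. Here too all arrays labelled MLC-SOCS-3 lay below all controls, replicate 2 by less than the rounding shown, with most of the difference of -0.046 (limma adjusted p = 0.92) coming from MLC-SOCS-3 replicate 3. Without that array the difference was -0.013. Tnnc2, fast troponin C, read 13.91, 13.88 and 13.89 on MLC-SOCS-3 replicates 1 to 3, against 13.96, 13.90 and 13.93 on control replicates 1 to 3. MLC-SOCS-3 replicate 1 lay above control replicate 2, and the difference was -0.033 (95% interval -0.18 to 0.11, limma adjusted p = 0.95), or -0.017 without control replicate 1. The intervals of Tnni2 and Tnnc2 corresponded to changes between -12.9% and 7.65% and between -11.5% and 7.89% in intensity.

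The cardiac troponins are known chiefly from heart, and adult limb muscle makes little of them. Tnni3, cardiac troponin I, read 5.77, 5.53 and 5.65 on MLC-SOCS-3 replicates 1 to 3, against 6.15, 6.06 and 5.70 on control replicates 1 to 3. This was the widest difference of the 10, at -0.32 (95% interval -0.65 to 0.014, limma adjusted p = 0.83), but control replicate 3 lay below MLC-SOCS-3 replicate 1. With its mean of 5.81 below the median probe set, it was at a level where the files cannot separate expression from background, as no detection calls were used. Tnnt2, cardiac troponin T and also the form of embryonic skeletal muscle, read 7.15, 7.01 and 6.91 on MLC-SOCS-3 replicates 1 to 3, against 7.12, 7.10 and 7.08 on control replicates 1 to 3. MLC-SOCS-3 replicate 1 was the highest of the 6 arrays and replicate 3 the lowest, and the difference was -0.078 (95% interval -0.27 to 0.12, limma adjusted p = 0.90). It was -0.14 without replicate 1 and -0.021 without replicate 3 of MLC-SOCS-3.

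Of the tropomyosins, Tpm1 had an SD of 0.022 in both groups and Tpm2 an SD of 0.077 on the arrays labelled MLC-SOCS-3 and 0.0067 on control arrays (n = 3 each). Tpm1, the alpha form of fast fibres and heart, read 14.15, 14.19 and 14.17 on MLC-SOCS-3 replicates 1 to 3, against 14.16, 14.15 and 14.20 on control replicates 1 to 3. The groups overlapped, and the difference was -0.0036 (95% interval -0.15 to 0.14, limma adjusted p = 0.99), with a positive value of 0.016 after centring on array medians. Tpm2, the beta form, read 13.47, 13.61 and 13.48 on MLC-SOCS-3 replicates 1 to 3, against 13.54, 13.54 and 13.55 on control replicates 1 to 3. MLC-SOCS-3 replicate 2 lay above every control and the other two below every control, and the difference was -0.027 (95% interval -0.19 to 0.14, limma adjusted p = 0.96). It was -0.071 without replicate 2, -0.00034 without replicate 1 and -0.0098 without replicate 3 of MLC-SOCS-3.

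Tpm1 and Tpm2 are also expressed by smooth muscle and fibroblasts. The smooth muscle and pericyte markers had list means between 7.85 and 7.91 on the arrays labelled MLC-SOCS-3 and between 7.84 and 7.94 on control arrays, with 5 of 11 differences positive. The fibroblast markers had list means of 9.68, 10.06 and 9.91 on MLC-SOCS-3 replicates 1 to 3, against 9.67, 9.70 and 9.74 on control replicates 1 to 3, with 8 of 8 differences positive. The array with the highest fibroblast mean, MLC-SOCS-3 replicate 2, was also the one with the highest Tpm2 value. MLC-SOCS-3 replicate 3, with a fibroblast mean of 9.91 above every control, had a Tpm2 value of 13.48, below every control. The part of these cells in the Tpm2 value was not tested. None of the markers in either list was called by limma, and 0 of them had an unadjusted p under 0.05. Means above the median probe set were found for 10 of 11 smooth muscle and pericyte markers and 8 of 8 fibroblast markers. In whole muscle, fewer cells of a type and less RNA per cell cannot be told apart.

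**Figure D2:**
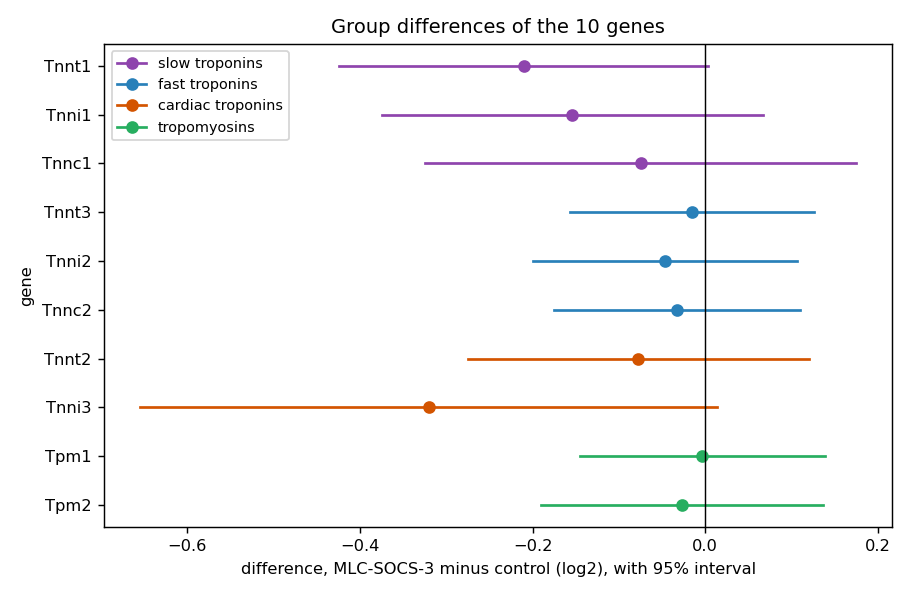
Difference in log2 intensity, MLC-SOCS-3 minus control, for the 10 genes (points) with 95% intervals from limma (lines), coloured by class. All 10 intervals include 0, and those of the fast troponins and tropomyosins are narrower than those of the slow and cardiac forms.

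The signs ran one way, as all 10 differences were below 0. Over all probe sets 53.2% were below 0, with a median of -0.0094, and the median of the 10 genes was -0.061. Centring each array on its median moved the median of all probe sets to 0.010, left 8 of the 10 differences below 0 (46.7% of all probe sets) and gave a median of -0.041 for the 10 genes. Groups did not overlap for 2 of the 10 genes, Tnnt1 and Tnni2, both with lower values on the arrays labelled MLC-SOCS-3, against 6.76% of all probe sets. None of the 10 had all arrays labelled MLC-SOCS-3 above all controls, against 5.04% of all probe sets. After centring the count of lower genes was 0, and after quantile normalization it was 1, Tnnt1.

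The contrast of slow and fast forms was followed within each array, where only a shift of equal size in both probe sets cancels. Tnnt1 less Tnnt3 was -7.09, -7.05 and -7.26 on MLC-SOCS-3 replicates 1 to 3, against -6.90, -6.90 and -7.02 on control replicates 1 to 3. All arrays labelled MLC-SOCS-3 lay below all controls, and the group means of -7.14 ± 0.11 and -6.94 ± 0.07 (SD, n = 3 each) differed by -0.19. This value lay between -0.24 and -0.13 when any 1 array was left out. Tnnt3 hardly varied near the top of the scale, so the value mostly follows Tnnt1, at -0.21 on its own. A shift of the array in Tnnt1 may therefore remain in it, and with arrays centred on their medians the Tnnt1 groups overlapped. No background share was computed for such pairs.

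Tnni1 less Tnni2 had means of -7.66 ± 0.14 on the arrays labelled MLC-SOCS-3 and -7.55 ± 0.11 on control arrays (SD, n = 3 each). MLC-SOCS-3 replicate 3 was at -7.55, with control replicates 2 and 3 lower, at -7.63 and -7.59. The means differed by -0.11, and by -0.16 to -0.030 when any 1 array was left out. Tnnc1 less Tnnc2 had means of -6.25 ± 0.08 on the arrays labelled MLC-SOCS-3 and -6.21 ± 0.20 on control arrays (SD, n = 3 each). The lowest of its 6 values was control replicate 1 at -6.42 and the highest control replicate 2 at -6.01. The means differed by -0.042, and by -0.14 to 0.057 when any 1 array was left out, with a positive value without control replicate 2 and without MLC-SOCS-3 replicate 1. No test was made of these pairs or of the differences between them.

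**Figure D3:**
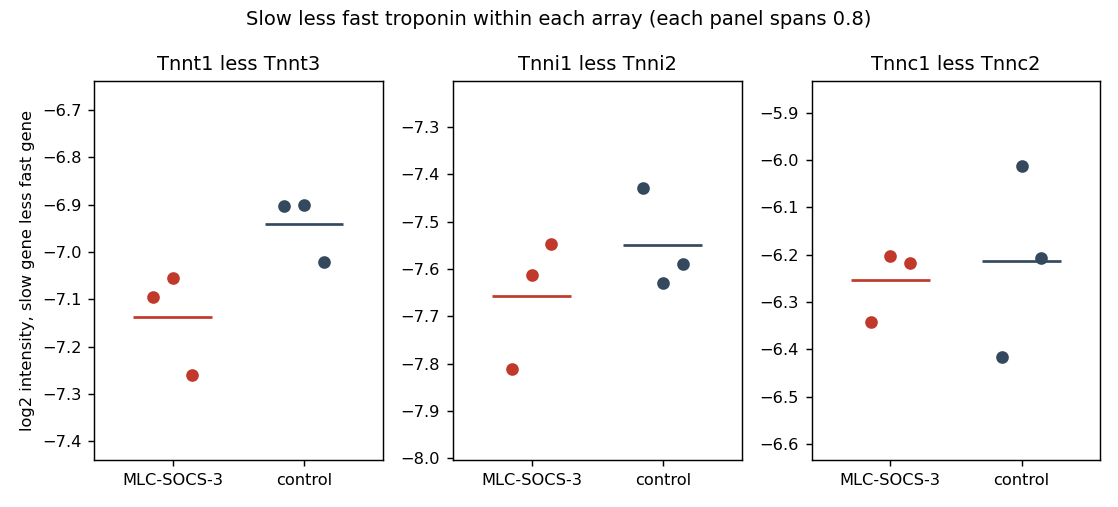
Log2 intensity of the slow troponin less that of its fast counterpart within each array, for troponin T, I and C from left to right, with arrays labelled MLC-SOCS-3 left of control arrays. Points are arrays, lines are group means, and each panel spans 0.8. The groups are separate for Tnnt1 less Tnnt3, which mostly follows Tnnt1, and overlap in the other panels.

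Correlations among the slow troponins were uneven. Over the 6 arrays Pearson's r was 0.55 between Tnnt1 and Tnni1, 0.29 between Tnnt1 and Tnnc1 and -0.039 between Tnni1 and Tnnc1. The fast troponins had r of 0.41 (Tnnt3 and Tnni2), 0.35 (Tnni2 and Tnnc2) and -0.25 (Tnnt3 and Tnnc2). The highest value among all pairs of members was 0.86, between Tnnt3 and Tpm2, and 0.83 was found between Tnnt1 and Tnni2. These points share their arrays and with them the array's brightness, and they include the group difference.

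Troponin T and I genes lie side by side in the mouse genome, and the differences of such neighbours were set side by side. Tnnt1 and Tnni3 are adjacent among protein-coding genes on chromosome 7 and were at -0.21 ± 0.09 and -0.32 ± 0.14 (SE). Tnni2 and Tnnt3, elsewhere on chromosome 7 with Lsp1 between them, were at -0.046 ± 0.063 and -0.015 ± 0.058 (SE). Tnni1 and Tnnt2 on chromosome 1, with Lad1 between them, were at -0.15 ± 0.09 and -0.078 ± 0.081 (SE). Lsp1, a leukocyte protein gene, was at -0.019 ± 0.070 and Lad1 at -0.15 ± 0.17 (SE, limma adjusted p = 0.98 and 0.91). The order is that of the GRCm38.p6 gene table.

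Genes with the array pattern most like Tnnt1 were sought among 11408 genes above the median level. They were Lrch1 (r = 0.982), Kcnab1, a potassium channel subunit (0.979), H2bc9, a histone gene (0.976), Fxyd1, a regulator of the sodium pump (0.976), and Fgfrl1, a receptor related to FGF receptors (0.974). For Tnni2 they were Srpk3, a kinase of striated muscle (r = 0.987), Itgb1bp2, the integrin-binding protein melusin (0.979), Abat, which degrades GABA (0.976), Shmt1, an enzyme of serine metabolism (0.973), and Hbq1b, a globin gene (0.971). With 6 arrays, 86 genes had r above 0.9 with Tnnt1 and 102 with Tnni2. Tnni2 lay at 13.82 to 13.85 on all arrays but MLC-SOCS-3 replicate 3, at 13.73. Its r values therefore rest largely on that array.

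The rest of the thin filament gave no called gene. Of 16 further tropomyosin and filament-length genes, 9 differences were positive and 7 negative, with a median of 0.030 against -0.0094 over all probe sets. Tmod3, a capping protein of the pointed end, was at 0.13 ± 0.07 and Lmod2, a leiomodin that nucleates and lengthens filaments, at 0.19 ± 0.13 (SE). Tmod1, the capping protein of striated muscle, was at -0.090 ± 0.072 and Capzb, which caps the end in the Z disc, at -0.064 ± 0.058 (SE). Tpm3, the tropomyosin of slow fibres and of many other cells, read 9.71, 9.82 and 9.90 on MLC-SOCS-3 replicates 1 to 3, against 9.77, 9.72 and 9.80 on control replicates 1 to 3. It and Tpm4, a non-muscle form at -0.019 ± 0.088 (SE), were named as the other tropomyosins on the array and not by the naming rule.

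Other slow fibre genes lay on both sides of 0. Of 16, 8 differences were positive and 8 negative, with a median of 0.0056. Mybpc1, slow myosin-binding protein C, was at 13.34 ± 0.01 on the arrays labelled MLC-SOCS-3 and 13.08 ± 0.03 on control arrays (SD, n = 3 each), and it did not pass over all probe sets (limma adjusted p = 0.75). It was called with an adjusted p of 0.014 when limma was run on the 23410 listed probe sets with trend and robust moderation. Under that setting limma called 11 probe sets, and 0 of the 10 troponins and tropomyosins. Mybpc1 was the only gene of the slow fibre list among the 11. The others were Chpt1, Utp20, Scyl2, Apaf1, Slc25a3, Socs2, Msrb1, Trim72, Htra4 and Casp12. Whether the Mybpc1 difference concerns fibre type or the place of the gene in the genome was not tested. Myoz2, a Z disc protein of slow fibres, was at -0.52 ± 0.21 (SE, limma adjusted p = 0.83), with control replicate 1 at 10.23 and control replicates 2 and 3 at 9.48 and 9.52. Myh7b and Pln, a myosin and an inhibitor of the calcium pump, were at -0.20 ± 0.09 and 0.21 ± 0.11 (SE).

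Among 17 other fast fibre genes, 4 differences were positive and 13 negative, with a median of -0.023, near that of the fast troponins at -0.033. Mylk2, the skeletal myosin light chain kinase, was at -0.22 ± 0.08 and Myh2, the myosin of fast oxidative fibres, at -0.30 ± 0.15 (SE). Myoz3 and Myh1 were at -0.086 ± 0.067 and 0.060 ± 0.058 (SE). Of these lists 1 slow gene was higher and 1 slow and 1 fast gene lower at an unadjusted p under 0.05 (Mybpc1, Myoz2 and Mylk2), against 2.52% higher and 3.4% lower over all probe sets, and none passed after adjustment.

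Of 11 heart genes, 6 had probe sets above the median level, Myl4 among them at 8.34 on the arrays labelled MLC-SOCS-3 and 8.50 on control arrays. Of the 11, 4 differences were positive and 7 negative, with a median of -0.077. Nppb, a natriuretic peptide gene, was at -0.26 ± 0.09 (SE, limma adjusted p = 0.81), and Myl4 and Myh6, atrial light chain and alpha myosin, were at -0.16 ± 0.08 and -0.14 ± 0.08 (SE). Nkx2-5, a cardiac transcription factor, was at -0.089 ± 0.062 (SE). The list mean was 6.06 to 6.12 on the arrays labelled MLC-SOCS-3 and 6.09 to 6.16 on control arrays, close to the median probe set, and whether any heart gene is expressed here was not tested. Markers of embryonic and regenerating muscle, a state in which Tnnt2 is known to be made, had 3 positive and 8 negative differences of 11, with a median of -0.025. Among them Myod1, a myogenic factor, was at -0.48 ± 0.18 and Chrng, the fetal acetylcholine receptor subunit, at -0.26 ± 0.12 (SE), while Myh3 and Myh8, the embryonic and perinatal myosins, were at -0.14 ± 0.09 and 0.084 ± 0.070 (SE). None of these passed the test.

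**Figure D4:**
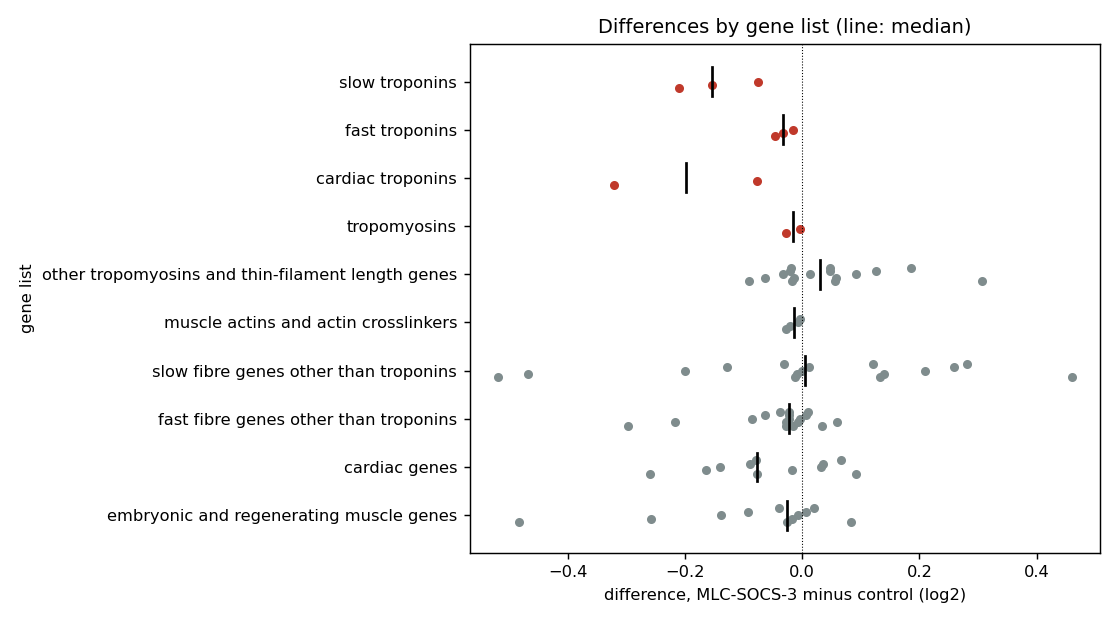
Difference in log2 intensity, MLC-SOCS-3 minus control, for each gene of the 4 classes of troponins and tropomyosins (red) and of 6 other lists (grey), with the list median as a black line. The fast troponins, tropomyosins and actins lie close to 0, and the other slow fibre genes lie on both sides of it.

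Markers of other cells that can be cut out with the muscle were set beside these values. Tendon markers had 6 of 8 differences below 0, with list means of 7.50 to 7.54 on the arrays labelled MLC-SOCS-3 and 7.53 to 7.78 on control arrays. Macrophage markers had 7 of 8 above 0 (6.74 to 7.11 on the arrays labelled MLC-SOCS-3 and 6.58 to 6.92 on control arrays) and adipocyte markers 6 of 6 (6.64 to 6.81 on the arrays labelled MLC-SOCS-3 and 6.41 to 6.51 on control arrays). Endothelial markers had 2 of 7 above 0 and Schwann cell markers 0 of 4. No gene of these lists was called by limma, and at an unadjusted p under 0.05 there were 3 lower tendon markers (Mkx, Cilp2 and Comp), 1 higher macrophage marker (Itgam) and 1 higher adipocyte marker (Adipoq), where 3.4% of all probe sets were lower and 2.52% higher. Means above the median probe set were found for 7 of 8 tendon, 7 of 8 macrophage and 3 of 6 adipocyte markers. The same held for 7 of 7 endothelial and 3 of 4 Schwann cell markers. No detection calls were used, and the part of these cells in the troponin values was not tested.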

How the data were processed

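Gene expression was measured on 6 Affymetrix arrays, 3 labelled MLC-SOCS-3 and 3 control. The authors deposited log2 intensities. The submitters' processing notes name RMA and Affymetrix Expression Console, with no version. They were used as deposited. The number of arrays limits the precision, and no detection calls were used. The annotation lists 23410 of 35557 probe sets, 21789 of them with 1 symbol and 1621 with several, and the other 12147 are unnamed here. Of the probe sets with 1 symbol, 21698 were matched by Entrez identifier to the GRCm38.p6 table and took its symbol. A gene with several probe sets was represented by the brightest.

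Groups were compared with limma 3.58.1 in R 4.3.3 (lmFit, eBayes, two-sided), adjusted by Benjamini-Hochberg over all probe sets, with all 6 arrays and no covariate. The script was tested on simulated data. The members, lists and alternatives were chosen with earlier results of these data known. Named genes were all members, up to 4 genes per list with the smallest p, any gene of a list of 8 or fewer, and Socs3. The 5 genes most like Tnnt1 and Tnni2 by Pearson's r, and genes called under another setting, were also named. Lists are described by counts and medians, with no set test. Alternatives changed the moderation, the probe sets tested, the normalization, the block and the arrays included.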

Additional observations from a re-analysis of the deposited data

How the results depend on the processing

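Each of the 10 differences was recomputed under up to 13 other settings, 129 values in all. None was called, 124 kept their sign, and the lowest adjusted p from limma was 0.74. An unadjusted p under 0.05 was reached by 5.04% to 6.75% of the probe sets in each setting. Tnnt1 passed that mark in 6 of the 13 settings, Tnni3 in 3 of its 12, and no other member in any. Tnni3, below the median level, has no value with the filter on dim probe sets, and no member has another probe set to compare. Centring on array medians turned Tnnt3 to 0.0039 and Tpm1 to 0.016, took the count of genes whose groups do not overlap to 0 and gave a median of -0.041. Quantile normalization left 1 such gene. Leaving out 1 array at a time gave Tnnc1 between -0.16 and 0.011, Tpm1 between -0.014 and 0.0090, the median between -0.070 and -0.027 (-0.027 without MLC-SOCS-3 replicate 3) and 2 to 5 genes without overlap, with 5 without MLC-SOCS-3 replicate 1 or 2 (13.9% and 11.5% of all probe sets), 4 without control replicate 2 (12.5%), 3 without control replicate 1 or 3 (10.5% and 13.5%) and 2 without MLC-SOCS-3 replicate 3 (12%). Over all probe sets limma called 11 among the 23410 listed ones with trend and robust moderation, 1 with 1 probe set per gene (Casp12), and 0 or 1 without 1 array, that one, without control replicate 2, being an unnamed probe set. Same-numbered arrays did not deviate together, with correlations of deviations between -0.043 and -0.018, and no array correlated best with its own number. With the replicate block, limma called 0 probe sets and 0 members. Intensities near the top of the scale limit what can be seen for the fast troponins and tropomyosins. Those around the median limit what can be seen for the slow and cardiac forms.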

Other observations

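Actc1, the cardiac actin that adult limb muscle also expresses, had a wider spread than any of the troponins and tropomyosins, with an SD of 0.66 on the arrays labelled MLC-SOCS-3 and 0.41 on control arrays (n = 3 each). It read 11.60, 12.91 and 12.26 on MLC-SOCS-3 replicates 1 to 3, against 12.54, 11.81 and 12.51 on control replicates 1 to 3. The control values lay within the range of the arrays labelled MLC-SOCS-3, with a difference of -0.028 ± 0.37 (SE, limma adjusted p = 0.99). Acta1, Actn2 and Actn3 were at -0.0079 ± 0.059, -0.022 ± 0.095 and -0.0037 ± 0.059 (SE).

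Klhl40, a thin filament stabiliser singled out after its values were seen, read 8.92, 9.60 and 9.95 on MLC-SOCS-3 replicates 1 to 3, against 9.49, 9.15 and 8.91 on control replicates 1 to 3. MLC-SOCS-3 replicate 1 was close to the lowest control and replicates 2 and 3 lay above every control, and the difference was 0.31 ± 0.28 (SE).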
